A study of Mus musculus with 2 samples.

Results

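Naive-like T cells of the mouse small intestine were taken as barcodes that carry CD3 transcripts together with transcripts of a naive or central T-cell programme, and lack the granzymes, the gamma-delta receptor gene and the B-cell receptor gene that mark the other lymphocytes of this tissue. A barcode was a member if it had at least 1000 unique molecular identifiers (UMIs, each counted as 1 captured RNA molecule), at least 300 genes and at most 25% of UMIs from mitochondrially encoded genes. It also needed at least 1 UMI of Cd3d, Cd3e and Cd3g together, at least 2 of Lef1, Tcf7, S1pr1, Dapl1 and Ccr7 together, at most 1 of Gzma and Gzmb, and 0 of Trdc and Cd79a. This gave 203 of 2795 kept barcodes in the FMTg library and 70 of 2983 in the Tg library, 273 of 5778 in all.

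Both libraries were 10x Genomics 3′ single-cell libraries, each from the small intestine of 1 C57BL/6j mouse aged 60 days, taken 24 hours after a single tamoxifen injection of 6 mg per 40 g body weight. The FMTg mouse was Mdm2FM/- Cag-CreERTg and was treated to lose Mdm2 through the tamoxifen-activated recombinase, which the Cag promoter drives in most cell types. The Tg mouse was Mdm2+/- Cag-CreERTg and retained 1 functional Mdm2 allele, so both mice carried 1 Mdm2-null allele, the recombinase and the tamoxifen. With 1 mouse and 1 library in each group, genotype, mouse and library cannot be told apart, and no difference between the libraries was tested. Intervals are at 95% and cover counting error only.

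Naive T cells leave the thymus, circulate between blood and lymphoid organs, and have not yet met antigen. The transcription factors encoded by Lef1 and Tcf7 keep this state, Ccr7 encodes a chemokine receptor that lets the cells enter lymph nodes, S1pr1 encodes the receptor with which they leave again, and Klf2 encodes the factor that turns on S1pr1. In the gut such cells are found in Peyer's patches and other lymphoid tissue of the wall, whereas most T cells of the epithelium are resident, CD8-positive and cytotoxic. Mdm2 is the ubiquitin ligase that holds p53 down and is itself a p53 target, and lymphocytes are among the cells in which active p53 turns on cell-cycle arrest and death genes.

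The libraries held 6382 FMTg and 6270 Tg barcodes, of which 6021 FMTg and 5762 Tg barcodes met the minimums of UMIs and genes and 2795 FMTg and 2983 Tg barcodes also the mitochondrial limit. Kept barcodes had a median of 4778 UMIs in FMTg and 5080 in Tg, with a median mitochondrial share of 14.7% in FMTg and 11.6% in Tg. The libraries shared 14 barcode sequences, 0 of them among the members of both. Enterocyte RNA was found in nearly all members, at different levels in the libraries: Reg3b, a secreted antimicrobial lectin of enterocytes, had a UMI in 191 of 193 FMTg and 69 of 69 Tg naive-like cells, at 738 CPM (a gene's UMIs in each 1e+06 UMIs of the class) in FMTg and 2102 CPM in Tg, once the barcodes described next were set aside.

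A few members carried RNA of another cell type. In FMTg, 10 of the 203 members had between 3.13% and 14.8% of their UMIs from a list of 20 epithelial markers, while the highest value among the others was 1.88%. These 10 barcodes were deep, with a median of 16783 UMIs, and held 17.9% of all UMIs of FMTg members, 494 of the 568 Epcam UMIs, 130 of the 157 Cdkn1a UMIs and 33 of the 69 Mdm2 UMIs. In Tg, 1 member of 36257 UMIs held 2238 of the 2245 Lyz2 UMIs, a lysozyme gene of macrophages, and 10.5% of all UMIs of Tg members. Members with at least 2% of UMIs from the epithelial or the myeloid marker list were therefore left out of most values below, a limit chosen after the data had been seen, and the remaining 193 FMTg and 69 Tg cells are called unmixed. Leaving out the barcodes with the highest doublet scores kept 201 FMTg and 66 Tg members, so that score did not find most of the mixed ones.

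**Figure D1:**
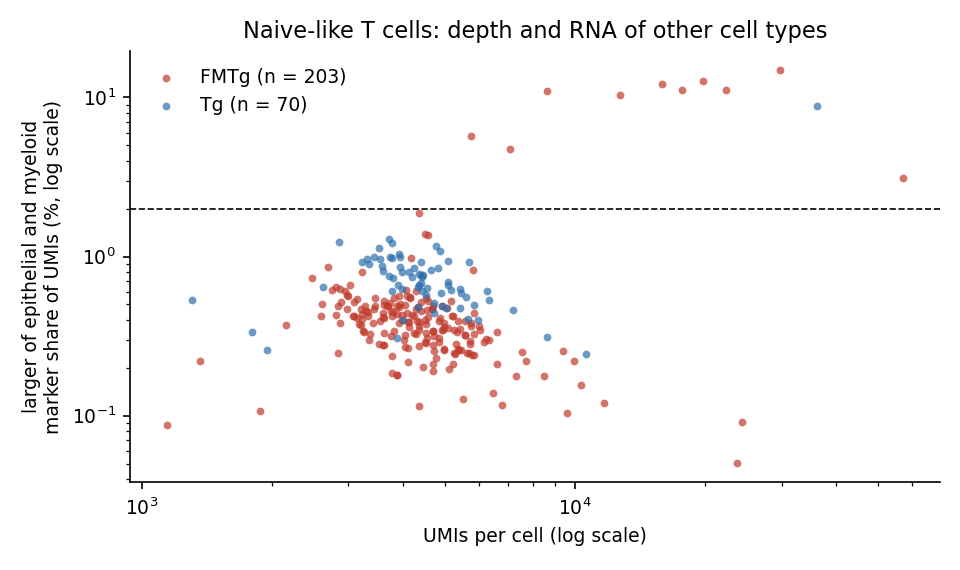
Each point is 1 naive-like T cell, placed by its UMIs (x axis, log scale) and by the larger of its epithelial and myeloid marker shares of UMIs (y axis, percent, log scale), FMTg in red and Tg in blue. The dashed line at 2% separates 10 FMTg cells and 1 Tg cell from the unmixed cells, and most of those lie to the right of the main cloud.

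The gate used 5 naive genes, so their values are a description. A median of 6 UMIs of the 5 genes together was found per member in both libraries, with a range of 2 to 29 in FMTg and 2 to 19 in Tg. Lef1 had a UMI in 138 of 193 FMTg and 51 of 69 Tg unmixed cells, at 358 CPM in FMTg and 375 CPM in Tg. Tcf7 reached 158 of 193 FMTg cells and 64 of 69 Tg cells. Both libraries thus had each gene in most cells. S1pr1 was at 283 CPM in FMTg and 294 CPM in Tg, Dapl1, a gene of naive lymphocytes, at 191 CPM in FMTg and 149 CPM in Tg, and Ccr7 at 148 CPM in FMTg and 123 CPM in Tg. Of the 5 genes, Dapl1 was found in the fewest cells, 64 of 193 FMTg and 16 of 69 Tg cells.

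The label was checked on genes outside the gate. Il7r, the receptor for the survival cytokine of naive T cells and the only one of the label's 5 markers that the gate did not use, was at 262 CPM in 95 FMTg cells and 329 CPM in 28 Tg cells. The median depth of these naive-like cells was 4308 UMIs in FMTg and 4376 in Tg. In unmixed resting B cells, which should lack Il7r, 2 of 525 FMTg and 0 of 459 Tg cells had a UMI, at a median depth of 3253 UMIs in FMTg and 3385 in Tg. Igfbp4, a binding protein for insulin-like growth factors that marks naive T cells in mouse, was at 398 CPM in FMTg and 471 CPM in Tg, and Satb1, a chromatin organiser of thymocytes and naive T cells, at 311 CPM in FMTg and 400 CPM in Tg. A constant-region gene of the T-cell receptor (Trac, Trbc1 or Trbc2) was absent in only 1 unmixed cell of each library. The markers went with the label in both libraries, with the exception of the CD8-bearing members described below.

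The cells just inside and just outside the gate were less clear. The 20 FMTg and 12 Tg members with exactly 2 UMIs of the gate genes had 2063 CPM of Ccl5 in FMTg and 3168 CPM in Tg, a chemokine of resident and cytotoxic T cells. The 36 FMTg and 12 Tg cells with 1 such UMI, outside the gate, had 1229 CPM of Ccl5 in FMTg and 3373 CPM in Tg. Cells at the lower edge thus had resident-type RNA on both sides of it. Members with 1 granzyme UMI had 688 CPM of Ccl5 in FMTg and 53.5 CPM in Tg, and cells with 2 granzyme UMIs, outside, had 391 CPM in FMTg and 2686 CPM in Tg.

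Set against other T cells (CD3 transcripts, no Trdc, no Cd79a, not members), the naive-like cells had a different profile beyond the gate genes, which is again a description, since the gate chose it. Among 6383 genes measured in unmixed cells, 120 were at least 2-fold higher in naive-like cells in both libraries (1.88%) and 502 at least 2-fold lower in both (7.86%). With the mixed barcodes kept in both classes, 214 of 8036 genes (2.66%) were higher and 963 (12.0%) lower. The genes with the highest smaller ratio included Igfbp4, Il6ra, Gm2682, Slamf6, Tspan32, Izumo1r, Kbtbd11, Klf2 and Gm8369. Klf2 was at 447 CPM in FMTg naive-like and 42.7 CPM in FMTg other T cells, and at 601 CPM in Tg naive-like and 70.4 CPM in Tg other T cells. Slamf6, a receptor of the signalling lymphocyte activation family that marks T cells with stem-like features, was at 346 CPM in FMTg naive-like and 35.1 CPM in FMTg other T cells, and at 368 CPM in Tg naive-like and 15.2 CPM in Tg other T cells. Izumo1r encodes folate receptor 4, which is carried by naive and regulatory CD4 T cells in mouse. It was at 293 CPM in FMTg naive-like and 31.2 CPM in FMTg other T cells, and at 336 CPM in Tg naive-like and 11.6 CPM in Tg other T cells. Il6ra, the interleukin-6 receptor chain of naive T cells, was at 79.6 CPM in FMTg naive-like and 4.95 CPM in FMTg other T cells.

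At the other end stood Ccl5, Gpr34, Spp1, Tyrobp, Atp8a2, Cd200r4, Ifitm3, Cd244, Napsa and Cd7. Ccl5 was at 501 CPM in FMTg naive-like and 20359 CPM in FMTg other T cells, and at 533 CPM in Tg naive-like and 22597 CPM in Tg other T cells. Cd7, an adhesion and signalling receptor of intraepithelial lymphocytes, was at 170 CPM in FMTg naive-like and 2759 CPM in FMTg other T cells, and at 178 CPM in Tg naive-like and 3296 CPM in Tg other T cells. Of 17 measured naive and central T markers outside the gate, 13 were at least 2-fold higher than in other T cells in both libraries and 0 lower. Txk, a kinase of the T-cell receptor pathway on that list, was not among them, at 264 CPM in FMTg naive-like and 333 CPM in FMTg other T cells. Of 20 measured effector and tissue-resident markers, 14 were at least 2-fold lower in both and 0 higher. The 27 measured p53 targets had a median log2 ratio of -0.70 in FMTg and -0.56 in Tg, against -0.22 over all genes in each library, with 4 at least 2-fold lower in both and 0 higher.

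**Figure D2:**
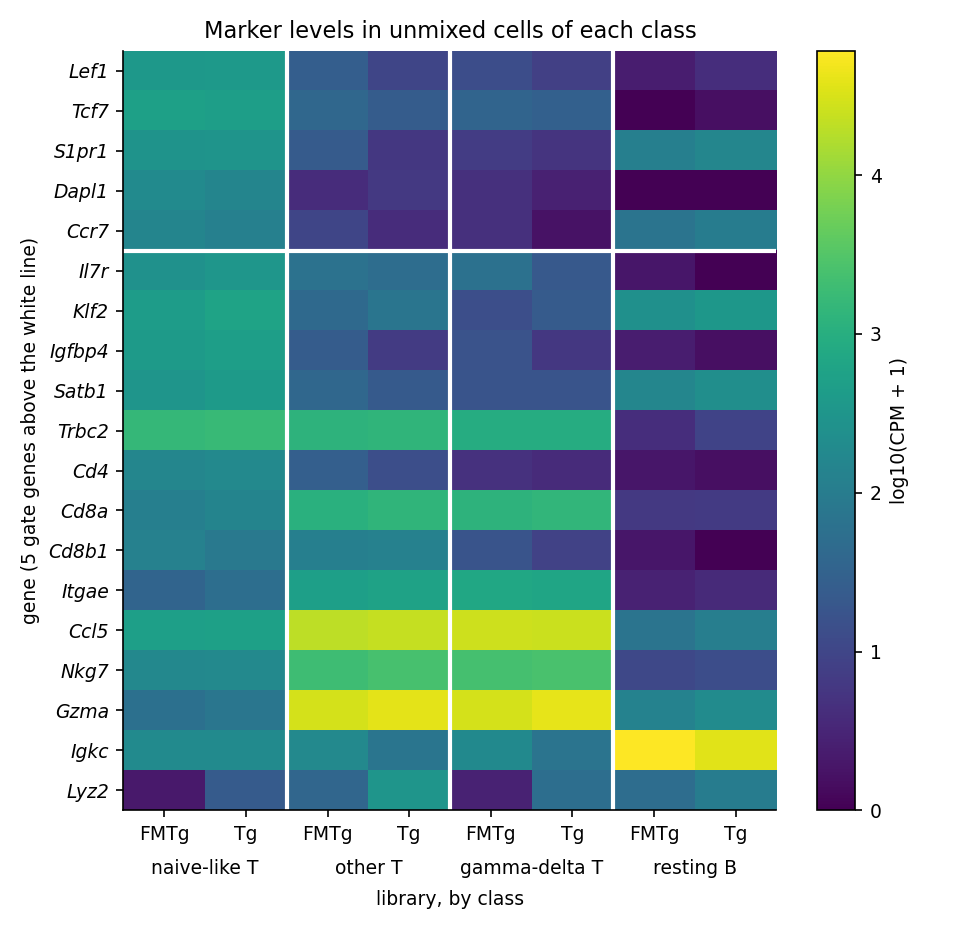
Levels of 19 genes (rows) as log10(CPM + 1) in unmixed cells of 4 classes, the FMTg library left of the Tg library in each class. The 5 gate genes stand above the white line; Igfbp4 and Cd4 are brighter in naive-like cells than in the other 3 classes, S1pr1, Ccr7, Klf2 and Satb1 are shared with resting B cells, and Ccl5, Nkg7 and Gzma are bright in the other T and gamma-delta T cells.

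The co-receptor divided the members. Among all members, 84 of 203 FMTg and 33 of 70 Tg cells had a UMI of Cd4 and none of Cd8a or Cd8b1, 25 FMTg and 8 Tg cells the reverse, 4 FMTg and 2 Tg cells both, and 90 FMTg and 27 Tg cells neither. Of cells with 1 kind of co-receptor, 77.1% (68.0% to 84.6%) were Cd4 cells in FMTg and 80.5% (65.1% to 91.2%) in Tg. The difference was -3.42 percentage points (-17.4 to 13.7). That interval covers counting error only and includes equal shares, and a difference between the mice was not tested. Thinned to 1000 UMIs per cell, 59.2% of 49 FMTg cells and 57.1% of 14 Tg cells were Cd4 cells. Among unmixed other T cells, Cd4 had a UMI in 41 of 508 FMTg and 32 of 713 Tg cells, and in resting B cells in 2 of 525 FMTg and 1 of 459 Tg cells.

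The unmixed CD8 members differed from the rest in both libraries. The Tg CD8 cells lay nearer the edge of the gate, with a median of 3 UMIs of the gate genes. The median was 6 in the FMTg CD8 cells and in the Cd4 cells and cells with neither of both libraries. The part of the gate edge in these values was not tested. Nkg7, a granule protein gene of cytotoxic cells, was at 1000.3 CPM (836 to 1188) in the 24 FMTg CD8 cells, 15.4 CPM (5.65 to 33.5) in the 79 FMTg Cd4 cells and 19.5 CPM (7.85 to 40.2) in the 86 FMTg cells with neither. In Tg it was at 944 CPM (680 to 1276) in the 8 CD8 cells, 14.6 CPM (1.76 to 52.6) in the 32 Cd4 cells and 33.9 CPM (9.22 to 86.7) in the 27 with neither. The CD8 cells were thus above the others in each library, with intervals that do not overlap. Itgae, the integrin chain with which resident T cells hold on to the epithelium, had 24 UMIs in 9 FMTg CD8 cells and 13 UMIs in 5 Tg CD8 cells, against 0 UMIs in the Cd4 cells of either library. Ccl5 was at 2555 CPM in FMTg and 1776 CPM in Tg CD8 cells, although 1 FMTg cell held 130 of the 332 UMIs and 1 Tg cell 43 of 79. Ccr9, the gut-homing chemokine receptor, was at 331 CPM in FMTg and 315 CPM in Tg CD8 cells.

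Between cells with neither co-receptor and Cd4 cells the naive genes did not share 1 direction. Klf2 was at 564 CPM (489 to 647) in FMTg cells with neither and at 326 CPM (272 to 388) in FMTg Cd4 cells, and at 889 CPM (727 to 1076) in Tg cells with neither and 517 CPM (404 to 652) in Tg Cd4 cells. Il7r had the same direction, at 315 CPM in FMTg cells with neither and 167 CPM in FMTg Cd4 cells, and at 449 CPM in Tg cells with neither and 233 CPM in Tg Cd4 cells. Igfbp4 was at 628 CPM (549 to 716) in FMTg cells with neither and 259 CPM (211 to 315) in FMTg Cd4 cells, while in Tg the intervals of 626 CPM (492 to 786) in cells with neither and 488 CPM (378 to 619) in Cd4 cells overlapped. Tcf7 ran the other way, at 494 CPM in FMTg cells with neither and 613 CPM in FMTg Cd4 cells, and at 423 CPM in Tg cells with neither and 524 CPM in Tg Cd4 cells. Lef1, Dapl1 and Satb1 were higher in cells with neither in FMTg and lower in Tg. The median depth of the cells with neither was 4114 UMIs in FMTg and 4331 in Tg, and that of the Cd4 cells 4245 UMIs in FMTg and 4158 in Tg.

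**Figure D3:**
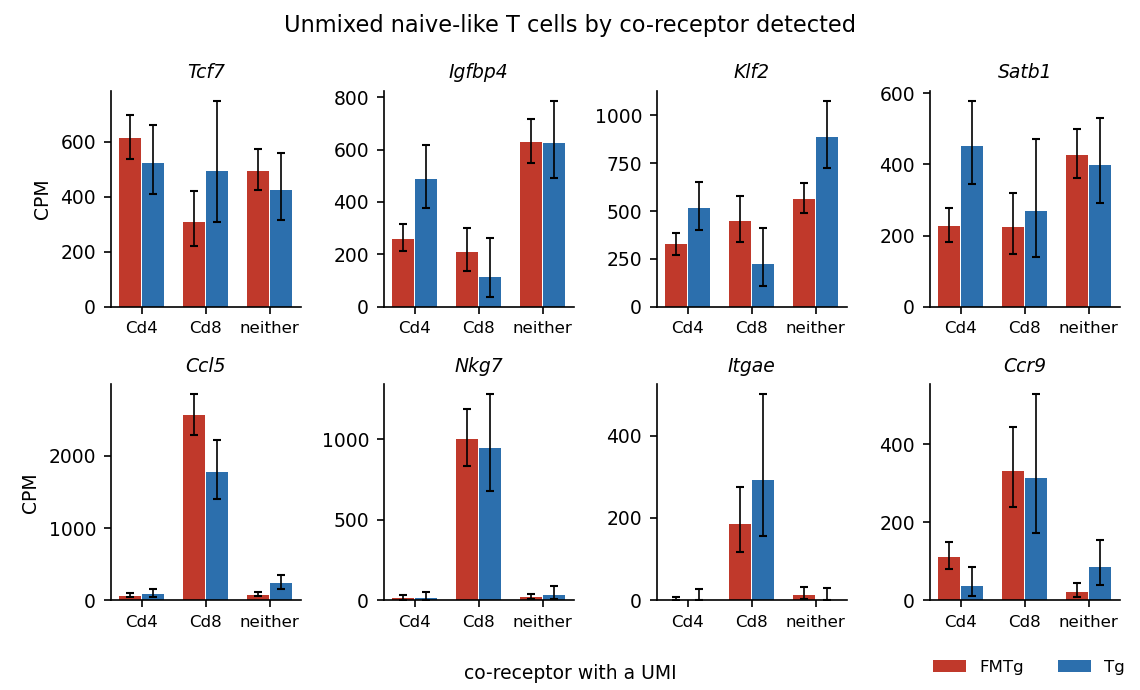
CPM of 8 genes (y axes) in unmixed naive-like T cells grouped by the co-receptor with a UMI (x axis), FMTg in red left of Tg in blue, with exact Poisson 95% intervals of the summed UMIs. Ccl5, Nkg7, Itgae and Ccr9 are highest in the CD8 cells of both libraries, and Klf2 is highest in the cells with neither co-receptor.

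Foxp3 and Il2ra were found in few members, and follicular helper markers in more. Foxp3, the factor of regulatory T cells, had 11 UMIs in 5 of 203 FMTg cells and 0 UMIs in the 70 Tg cells, where a count of 0 allows a share of up to 4.29% of cells with a UMI (3 of 70), and it had 0 UMIs in the unmixed resting B cells of both libraries. Foxp3 or Il2ra had a UMI in 9 of 203 FMTg cells and 0 of 70 Tg cells. Ikzf2, a factor of regulatory and of resident T cells, was at 247 CPM in FMTg and 216 CPM in Tg unmixed cells. The 7 follicular helper markers together had 406 UMIs in FMTg and 135 in Tg unmixed cells, a log2 CPM ratio FMTg over Tg of 0.04 (-0.24 to 0.33). Cxcr5, Bcl6 or Pdcd1 had a UMI in 37 of 193 FMTg and 9 of 69 Tg unmixed cells. After thinning this held for 9 FMTg and 2 Tg cells. Of 2 follicular helper markers measured against unmixed other T cells, 2 were at least 2-fold higher in naive-like cells of both libraries, where 1.88% of all genes were. At least 5 UMIs of the 20 cell cycle genes were found in 33 of 193 FMTg and 14 of 69 Tg unmixed cells, and after thinning in 2 FMTg and 1 Tg cells.

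Naive-like T cells made up 7.26% of kept barcodes in FMTg (6.33% to 8.29%) and 2.35% in Tg (1.83% to 2.96%), a 3.10-fold larger share in FMTg (2.35 to 4.12). Among CD3-positive barcodes they were 14.1% in FMTg and 4.83% in Tg, and among those without Trdc 26.1% of 779 in FMTg and 7.88% of 888 in Tg. Without the mixed barcodes the share of kept barcodes was 6.91% in FMTg and 2.31% in Tg. Of kept barcodes, 287 in FMTg and 141 in Tg met the CD3 and naive gene limits. The granzyme limit left 234 in FMTg and 96 in Tg, and the absence of Trdc 211 in FMTg and 79 in Tg. The ratio of the FMTg to the Tg share thus rose with each exclusion of the gate, Cd79a being the last. Other T cells were at 20.6% in FMTg and 27.4% in Tg. They are the CD3-positive barcodes without Trdc that are not members, so a larger member share lowers theirs by definition. Both classes together were 779 of 2795 kept barcodes in FMTg and 888 of 2983 in Tg. Gamma-delta T cells were at 23.7% in FMTg and 18.8% in Tg, and resting B cells at 19.6% in FMTg and 16.4% in Tg. Relative to resting B cells, with which naive T cells share lymphoid tissue, naive-like cells were 27.0% of the pair in FMTg and 12.5% in Tg.

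A share says nothing about the number of cells in the tissue. More naive-like cells, fewer other cells and different pieces of gut in the suspension, such as a Peyer's patch in one of them, cannot be told apart. The mitochondrial limit removed 62 of 265 FMTg and 13 of 83 Tg barcodes that met the rest of the gate, and without the limit the share was 3.06-fold larger in FMTg. With the gate applied to cells thinned to 1000 UMIs, 92 FMTg and 23 Tg members were left and the ratio was 4.27.

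**Figure D4:**
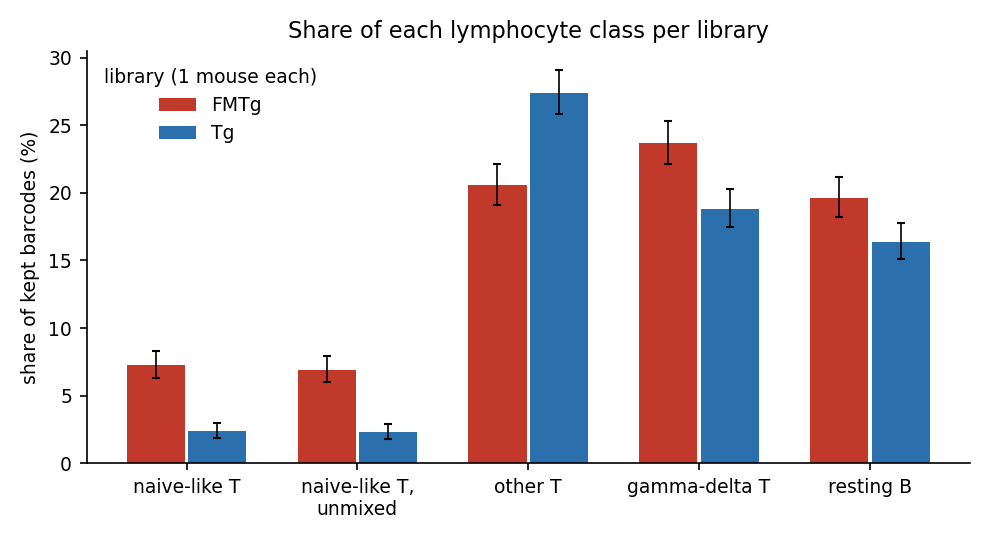
Share of kept barcodes (y axis, percent) in each lymphocyte class, FMTg in red left of Tg in blue, with exact binomial 95% intervals that cover counting error. Naive-like T cells stand at 7.26% in FMTg and 2.35% in Tg with all members and at 6.91% and 2.31% without the mixed barcodes.

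The p53 pathway was followed first through the targeted gene. Mdm2 (chromosome 10, 117688875 to 117710758, minus strand, mm10, positions from GENCODE vM21) had 69 UMIs in FMTg and 23 in Tg members, a log2 CPM ratio FMTg over Tg of -0.09 (-0.78 to 0.66). In unmixed cells it had 36 UMIs in 31 of 193 FMTg cells and 22 UMIs in 15 of 69 Tg cells, 39.8 CPM in FMTg and 71.0 CPM in Tg, a log2 ratio of -0.84 (-1.64 to 0.00). One Tg cell held 5 of the 22 UMIs. With the gate applied to thinned cells the Mdm2 ratio was 1.21, and over all members it was 0.02 under TMM scaling, so its direction was not fixed. The labels do not name the deleted exons, and a count from the 3′ end of the transcript does not check the recombination. Trp53, which encodes p53, was at 82.9 CPM in FMTg and 93.6 CPM in Tg unmixed cells, a log2 ratio of -0.18 (-0.81 to 0.50). Over all members at or below 10% mitochondrial UMIs, mixed barcodes kept, the Trp53 ratio was 1.12.

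Cdkn1a encodes the cell-cycle inhibitor p21, the best-known p53 target, and its direction depended on the mixed barcodes. Over all members it had 157 UMIs in FMTg and 24 in Tg, a log2 ratio of 1.04 (0.41 to 1.72). Without the 10 FMTg barcodes and the 1 Tg barcode with other RNA it had 27 UMIs in 20 FMTg cells and 15 UMIs in 12 Tg cells, 29.9 CPM in FMTg and 48.4 CPM in Tg, a log2 ratio of -0.70 (-1.66 to 0.32). In unmixed cells of the other classes its log2 ratio was 0.99 (0.77 to 1.22) in other T cells, 0.87 (0.55 to 1.19) in gamma-delta T cells and 0.36 (-0.03 to 0.76) in resting B cells.

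Several other p53 targets were higher in FMTg with and without the mixed barcodes. Rps27l, a ribosomal protein homologue, had 208 UMIs in 111 FMTg and 41 UMIs in 29 Tg unmixed cells, 230 CPM in FMTg and 132 CPM in Tg, a log2 ratio of 0.80 (0.31 to 1.32). One FMTg cell held 18 of those UMIs. Ddit4, an inhibitor of the mTOR kinase that stress and glucocorticoids also turn on, had 87 UMIs in 62 FMTg and 11 UMIs in 10 Tg unmixed cells, a log2 ratio of 1.44 (0.53 to 2.49). Ei24, an endoplasmic reticulum protein gene first found through p53, had 46 UMIs in 39 FMTg and 7 UMIs in 6 Tg cells, a log2 ratio of 1.17 (0.01 to 2.56). Tap1, the peptide transporter of class I presentation, had 66 UMIs in FMTg and 11 in Tg, a log2 ratio of 1.04 (0.11 to 2.11). Ccng1, which encodes cyclin G1, had 70 UMIs in FMTg and 14 in Tg, a log2 ratio of 0.78 (-0.07 to 1.72), against 1.33 with the mixed barcodes included. Among the 27 FMTg and 24 Tg members at or below 10% mitochondrial UMIs the Ddit4 ratio was -0.030. With the gate applied to thinned cells the Tap1 ratio was -0.34. Neither setting left out the mixed barcodes. The deepest of them, of 57163 UMIs in FMTg and of 36257 UMIs in Tg, were at or below 10%.

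Other targets did not share that direction. Bax, the pore-forming death effector, was at 163 CPM in FMTg and 142 CPM in Tg unmixed cells, a log2 ratio of 0.19 (-0.30 to 0.71). Btg2, an antiproliferative gene that is also immediate early, was at 154 CPM in FMTg and 219.6 CPM in Tg, a log2 ratio of -0.51 (-0.94 to -0.07). Among all members, 13 of 26 measured p53 targets were at least 1.5-fold higher in FMTg and 0 lower, where 17.4% of all measured genes were that much higher and 15.6% that much lower, and the median log2 ratio was 0.55 against -0.05 over all genes. In unmixed cells 8 of 23 were at least 1.5-fold higher and 3 lower, where the shares over all genes were 12.1% and 15.5%, with a median of 0.31 against -0.07. Genes counted here had at least 20 UMIs over both libraries.

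The UMIs of all 47 p53 targets together gave a log2 ratio of 0.49 (0.34 to 0.63) over all members and 0.24 (0.08 to 0.40) over unmixed cells, and without Rps27l the unmixed value was 0.16 (-0.00 to 0.33). The same sum in unmixed cells of the other classes gave 0.55 (0.50 to 0.59) in other T cells, 0.28 (0.23 to 0.33) in gamma-delta T cells and 0.14 (0.07 to 0.21) in resting B cells. The naive-like value thus lay below that of the other T cells, with intervals that do not overlap, and overlapped that of the gamma-delta and B cells. With the mixed barcodes kept the order was the reverse, at 0.49 in naive-like cells and 0.40 (0.37 to 0.43) in other T cells, with overlapping intervals. The p53 target share per unmixed cell had a median of 0.132% of UMIs in both libraries, with a highest value of 0.709% in FMTg and 0.383% in Tg.

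**Figure D5:**
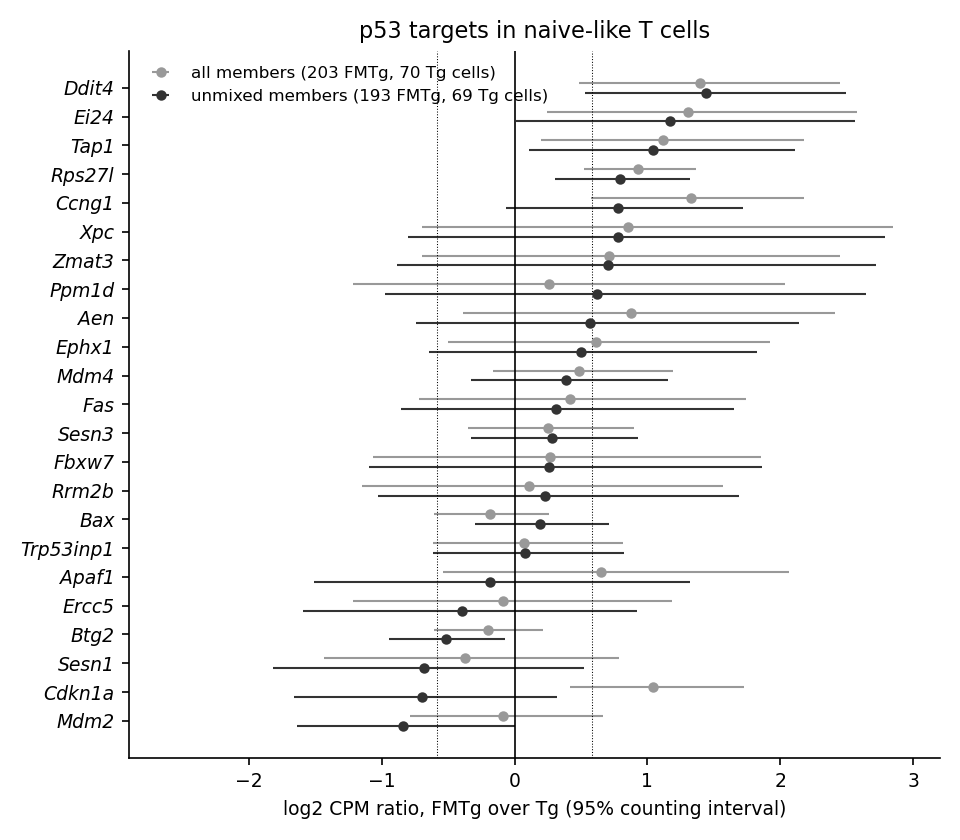
log2 CPM ratio FMTg over Tg (x axis) of p53 targets (rows) with at least 20 UMIs in unmixed naive-like T cells, with exact conditional 95% intervals, for all members in grey and for unmixed members in black. Dotted lines mark 1.5-fold; Cdkn1a is right of 0 with all members, at 1.04, and left of 0 without the mixed barcodes, at -0.70, while Rps27l, Ddit4, Ei24 and Tap1 stay beyond the right dotted line.

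The promoters of 3 of the targets that were higher and of Mdm2 are printed because each holds a match to the p53 half-site consensus, the decamer that p53 binds as a pair. The sequences are from RefSeq (GRCm38.p6), read 5′ to 3′ on the gene's strand from 250 bases before to 50 bases after the start, with matches in capitals. Rps27l is chr9:66946163-66946462 on the plus strand, Ccng1 chr11:40755237-40755536, Ei24 chr9:36797285-36797584 and Mdm2 chr10:117710709-117711008, all 3 on the minus strand.
Rps27l: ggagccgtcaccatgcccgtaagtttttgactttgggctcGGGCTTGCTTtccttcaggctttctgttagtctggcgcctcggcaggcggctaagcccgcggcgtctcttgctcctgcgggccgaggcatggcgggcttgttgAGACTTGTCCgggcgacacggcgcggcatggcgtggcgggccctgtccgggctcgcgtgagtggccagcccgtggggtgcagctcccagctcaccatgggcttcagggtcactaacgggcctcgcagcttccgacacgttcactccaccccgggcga
Ccng1: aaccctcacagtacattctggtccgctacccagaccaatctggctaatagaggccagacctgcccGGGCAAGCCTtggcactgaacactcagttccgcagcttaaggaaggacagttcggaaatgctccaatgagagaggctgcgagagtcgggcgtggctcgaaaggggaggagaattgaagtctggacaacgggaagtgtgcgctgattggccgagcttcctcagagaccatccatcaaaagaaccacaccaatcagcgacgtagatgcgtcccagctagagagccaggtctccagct
Ei24: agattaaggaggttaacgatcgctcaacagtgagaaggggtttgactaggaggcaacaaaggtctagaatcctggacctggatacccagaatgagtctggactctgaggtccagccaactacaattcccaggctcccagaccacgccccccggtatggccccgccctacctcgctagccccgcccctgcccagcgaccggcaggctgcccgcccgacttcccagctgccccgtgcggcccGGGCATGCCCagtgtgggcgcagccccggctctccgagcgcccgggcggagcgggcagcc
Mdm2: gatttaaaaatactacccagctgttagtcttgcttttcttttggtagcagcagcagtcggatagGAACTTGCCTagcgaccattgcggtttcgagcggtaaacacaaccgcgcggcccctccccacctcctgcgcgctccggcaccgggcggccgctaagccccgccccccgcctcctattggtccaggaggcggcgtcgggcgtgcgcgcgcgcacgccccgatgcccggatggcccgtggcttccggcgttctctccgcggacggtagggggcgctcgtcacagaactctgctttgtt
The consensus reads the same on both strands. The Rps27l promoter shown held 2 matches, which begin 210 and 107 bases before the start, and the window of another Rps27l start held none. The windows of Ccng1, Ei24, Mdm2, Bax and Trp53 held 1 each, and that of the upstream Cdkn1a start held 2, whereas the windows of Ddit4, Tap1 and Btg2 held none. Among the promoters printed, none thus holds 2 matches side by side. Binding of p53 to the matches was not tested. A match was found in 14 of 53 promoters of the p53 list (26.4%) and in 2745 of all 32851 promoters listed by RefSeq (8.36%). By their point values, Rps27l, Ccng1 and Ei24 were at least 1.5-fold higher in FMTg unmixed cells, and Mdm2 and Cdkn1a at least 1.5-fold lower. The intervals given above for Ccng1, Mdm2 and Cdkn1a reached or included equal levels, and Mdm2 is the targeted gene. Whether targets with a match stand on both sides is therefore not settled.

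Heat shock genes were lower in FMTg naive-like cells. Outside the markers of other cell types, this list and the immediate early genes described below had the lowest sums, close to each other. The sum over 12 chaperone genes had a log2 ratio of -0.75 (-0.82 to -0.67) in unmixed cells, with 5 of 9 measured genes at least 1.5-fold lower and 0 higher, where 15.5% of all genes were that much lower and 12.1% higher. Hspa8, the constitutive Hsp70, was at 1113 CPM in FMTg and 1899 CPM in Tg, a log2 ratio of -0.77 (-0.92 to -0.62). Hsp90aa1, the inducible Hsp90, was at 324 CPM in FMTg and 665 CPM in Tg, and Dnaja1, an Hsp40 co-chaperone, at 410 CPM in FMTg and 891 CPM in Tg. Hsph1, an exchange factor of Hsp70, had 33 UMIs in 30 FMTg and 57 UMIs in 36 Tg cells, a log2 ratio of -2.33 (-3.00 to -1.69). Per cell, the list had a median of 0.340% of UMIs in FMTg and 0.631% in Tg.

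Heat shock genes were lower in the other classes too, and the size of the difference moved with the mitochondrial share. The sum had a log2 ratio of -0.55 in unmixed other T cells, -0.75 in gamma-delta T cells and -0.97 in resting B cells. In the 26 FMTg and 23 Tg unmixed naive-like cells at or below 10% mitochondrial UMIs the ratio was -0.24 (-0.38 to -0.11), and in the 167 FMTg and 46 Tg cells above it -0.87 (-0.96 to -0.77). With all members at or below 10%, Hsp90aa1 was at 0.29 and Hsp90ab1 at 0.13. Those members include a mixed barcode of 57163 UMIs in FMTg and of 36257 UMIs in Tg. The part of the mitochondrial share in the result was not tested.

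Immediate early genes, which stimulation and tissue dissociation both turn on, were lower too. Their sum had a log2 ratio of -0.74 (-0.87 to -0.62) in unmixed cells, with 8 of 14 measured genes at least 1.5-fold lower and 0 higher, against the same 15.5% and 12.1% of all genes. Klf6 was at 68.6 CPM in FMTg and 268 CPM in Tg, although 1 Tg cell held 17 of the 83 UMIs. Junb was at 271 CPM in FMTg and 513 CPM in Tg, Jund at 418 CPM in FMTg and 801 CPM in Tg, and Egr1 had 23 UMIs in 18 FMTg and 29 UMIs in 10 Tg cells. Cd69, which blocks S1pr1 at the surface and is itself induced on activation, had 114 UMIs in 69 FMTg and 84 UMIs in 26 Tg cells, a log2 ratio of -1.11 (-1.52 to -0.68), with 15 of the Tg UMIs in 1 cell. In unmixed cells of the other classes, Cd69 was at log2 ratios of 0.02 in other T cells, -0.04 in gamma-delta T cells and -0.13 in resting B cells. In the same order, Jund was at -0.87, -0.87 and -0.69, Junb at -0.66, -0.64 and -0.57, and Klf6 at -0.99, -0.68 and -0.78. Those genes were thus lower in FMTg in every class. Egr1 was at 0.98 in other T cells, 0.97 in gamma-delta T cells and -0.26 in resting B cells. The sum of the list at or below 10% mitochondrial UMIs was at -0.42 (-0.66 to -0.17).

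Bcl2 and Mcl1 were lower in FMTg naive-like cells. Bcl2, the survival protein that interleukin-7 maintains, was at 274 CPM in 101 FMTg cells and 436 CPM in 35 Tg cells, a log2 ratio of -0.67 (-0.98 to -0.36), with 19 of the 135 Tg UMIs in 1 cell. Mcl1, its short-lived relative, was at 186 CPM in FMTg and 304 CPM in Tg, a log2 ratio of -0.71 (-1.08 to -0.33). In unmixed cells of the other classes, Bcl2 was at -0.16 in other T cells, -0.23 in gamma-delta T cells and -0.07 in resting B cells, and Mcl1 at -0.29, -0.25 and -0.09 in the same order. Il7r had a log2 ratio of -0.33 (-0.67 to 0.02) in naive-like cells, and of 0.35 in other T cells and 1.55 in gamma-delta T cells, all unmixed. Of 11 measured Bcl2-family and caspase genes in unmixed cells, 2 were at least 1.5-fold higher and 2 lower, close to the shares over all genes of 12.1% and 15.5%.

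The naive programme itself differed little between the libraries. Of 20 measured naive and central markers outside the gate, 2 were at least 1.5-fold higher in FMTg unmixed cells and 1 lower, where 12.1% and 15.5% of all genes were, and the sum had a log2 ratio of -0.13 (-0.21 to -0.05). Cd5, an inhibitory receptor whose level follows the strength of self-recognition in the thymus, was at 175 CPM in 81 FMTg cells and 84.0 CPM in 18 Tg cells, a log2 ratio of 1.06 (0.45 to 1.72). In unmixed other T cells Cd5 had a log2 ratio of 1.19, and in unmixed gamma-delta T cells, with 13 UMIs in FMTg and 3 in Tg, of 1.98. Klf2 had a log2 ratio of -0.43 (-0.68 to -0.17), Ms4a6b of -0.50 (-0.75 to -0.24) and Ets1, a factor needed for mature T cells, of -0.21 (-0.48 to 0.06). Of 17 measured receptor and co-receptor genes, 2 were at least 1.5-fold higher and 0 lower. Homing and tissue-exit genes had 0 higher and 2 lower of 14 measured, cytokine receptors and their signalling genes 1 higher and 5 lower of 20, and effector and resident markers 2 higher and 3 lower of 15, against 12.1% higher and 15.5% lower over all genes.

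Quiescence genes did not share 1 direction. Cdkn1b, the inhibitor p27 that holds resting T cells in G1, was at 108 CPM in 66 FMTg cells and 58.1 CPM in 17 Tg cells, a log2 ratio of 0.90 (0.16 to 1.71). Slfn2, whose loss ends T-cell quiescence in mouse, was at 306 CPM in FMTg and 465 CPM in Tg, a log2 ratio of -0.60 (-0.90 to -0.30). Btg1, an antiproliferative gene of resting lymphocytes and the most abundant on the list, was at 1107 CPM in FMTg and 1217 CPM in Tg. Of 18 measured, 1 was at least 1.5-fold higher and 4 lower, against 12.1% and 15.5% of all genes, and the sum had a log2 ratio of -0.27 (-0.36 to -0.18).

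Interferon response and class I genes differed little. Of 20 measured interferon response genes, 5 were at least 1.5-fold lower and 0 higher in unmixed cells, where the shares over all genes were 15.5% and 12.1%, and the sum had a log2 ratio of -0.17 (-0.29 to -0.06). At or below 10% mitochondrial UMIs the sum was at 0.03 (-0.18 to 0.25), and above it at -0.22 (-0.36 to -0.08). Ly6e was at 589 CPM in FMTg and 720 CPM in Tg. The class I genes H2-K1 and H2-D1, whose near-identical relatives can share reads, had log2 ratios of -0.31 (-0.44 to -0.18) and -0.31 (-0.47 to -0.14), and B2m, the light chain, of -0.22 (-0.38 to -0.06). Of 11 measured class I genes, 2 were at least 1.5-fold higher and 0 lower. The 40 nuclear oxidative phosphorylation genes had a summed log2 ratio of 0.09 (0.04 to 0.14), and of 0.04 (-0.02 to 0.10) without cells of 10000 UMIs or more.

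Among all genes with at least 50 UMIs in all members, 420 of 3490 (12.0%) were at least 1.5-fold higher in FMTg and 390 (11.2%) at least 1.5-fold lower. The ends of that ranking were genes of the mixed barcodes, with Lyz2 at 1 UMI in FMTg and 2245 in Tg, C1qa at 1 UMI in FMTg and 183 in Tg and Apoe at 13 UMIs in FMTg and 550 in Tg. In unmixed cells 190 of 2859 (6.65%) were that much higher and 277 (9.69%) that much lower. The genes named next come from the same rule applied to unmixed cells, and so were chosen after values had been seen.

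Fam169b stood apart from the rest. It had 87 UMIs in 67 of 193 FMTg cells, at most 4 in any cell, and 1 UMI in 1 of 69 Tg cells. The ratio was 29.8-fold, a log2 ratio of 4.90 with a counting interval of 2.38 to 10.22. It was also higher in FMTg in unmixed cells of the other classes, with log2 ratios of 1.67 in other T cells, 1.20 in gamma-delta T cells and 1.24 in resting B cells. Behind it came Exosc7, a subunit of the RNA exosome, with 55 UMIs in FMTg and 5 in Tg, and Nmt1, an N-myristoyltransferase, with 46 in FMTg and 5 in Tg. Art2b, an ADP-ribosyltransferase on the T-cell surface whose near-identical partner Art2a can share reads, had 92 UMIs in 67 FMTg cells and 10 UMIs in 7 Tg cells. Its log2 ratio of 1.66 (0.71 to 2.76) stood against -0.79 in unmixed other T cells and -0.99 in unmixed gamma-delta T cells. Atp2a3, a calcium pump of the endoplasmic reticulum in blood cells, had 50 UMIs in FMTg and 6 in Tg.

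The lowest genes in unmixed FMTg cells were led by secreted products of enterocytes and by genes already described. Reg1 had 30 UMIs in FMTg and 60 in Tg, and Reg3b had a log2 ratio of -1.51 (-1.67 to -1.35) in unmixed cells, with -1.14 in other T cells, -1.37 in gamma-delta T cells and -1.58 in resting B cells, all unmixed. In the unmixed naive-like cells, 13 of 18 measured epithelial markers were at least 1.5-fold lower in FMTg and 0 higher. Over all genes, 15.5% were that much lower and 12.1% that much higher. The epithelial list took a median of 0.379% of UMIs per cell in FMTg (range 0.0506% to 1.88%) and 0.669% in Tg (range 0.245% to 1.29%). Hsph1, Klf6, Egr1 and Fos were the stress and immediate early genes among the 10 lowest, together with Ahsa2, an activator of Hsp90, at 28 UMIs in FMTg and 27 in Tg.

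B-cell transcripts were present in all T-cell classes. Igkc, the kappa light chain, had a UMI in 106 of 193 FMTg and 24 of 69 Tg naive-like cells and in 259 of 508 FMTg and 216 of 713 Tg other T cells, so the naive-like shares were close to those of other T cells, which should lack it and had a median depth of 4701 UMIs in FMTg and 5025 in Tg. Of 6 measured B-cell markers, 1 was at least 1.5-fold higher and 3 lower in FMTg. Of 4 measured myeloid markers in unmixed cells 3 were at least 1.5-fold lower in FMTg, and 8 of the 18 on the list were at 0 in FMTg and 6 in Tg. Over all genes in unmixed cells, 12.1% were that much higher and 15.5% that much lower. The summed cell cycle genes had a log2 ratio of 0.20 (0.03 to 0.39) in unmixed cells and of -0.06 (-0.21 to 0.09) over all members. The direction rested on a pair of deep FMTg cells, which held 522 of the 1124 FMTg cell cycle UMIs, and without unmixed cells of 10000 UMIs or more, 4 in FMTg and 1 in Tg, the ratio was -0.58 (-0.78 to -0.38).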

How the data were processed

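The authors deposited raw counts, whole-number UMIs per gene and barcode, for 1 FMTg and 1 Tg library. Per the submitters' processing notes, CASAVA 1.8.1 and Cell Ranger 3.0 were used with the mm10 build. No source used here names the annotation release. Of 31053 gene symbols, 30416 matched 1 gene of GENCODE vM21, used for positions. Members, gene lists and comparisons were chosen with earlier results of these data known. UMIs were summed over the cells of a class in each library, divided by the total and given as CPM. A ratio is log2 FMTg CPM over Tg CPM with an exact conditional binomial interval, a library at 0 being set to 3 counts. Levels have exact Poisson and shares exact Clopper-Pearson intervals at 95%, which cover counting error only. A gene counted as higher or lower at 1.5-fold with at least 50 UMIs over both libraries, or 20 within lists. Gate genes, receptor segments, mitochondrial and ribosomal protein genes stayed out of rankings. Named genes were the gate and marker genes, Mdm2, Trp53, Cdkn1a, the 10 highest and 10 lowest ratios, and up to 4 most abundant and 4 most different members of each list with at least 30 UMIs, a few of which are not reported here. Shares of cells were also computed after thinning cells to 1000 UMIs. Doublets were scored with scanpy 1.11.5 and removed only as an alternative, as was TMM scaling with edgeR 4.0.16. Counting steps used Python 3.11.15 with numpy 2.4.6 and scipy 1.17.1 and were checked on simulated data. No p-value was computed.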

Additional observations from a re-analysis of the deposited data

How the results depend on the processing

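No paired analysis was possible because each group is 1 library. The numbers of cells and UMIs limit these values, and the 3 scalings shifted every FMTg over Tg ratio by 0.09 to 0.11 on the log2 scale and turned 1 of the 59 genes named, Mdm2, which was at 0.02 under TMM factors and without mitochondrial, ribosomal protein and epithelial genes in the total. The cause of a shift between settings was not tested. Of the 59, 15 stayed within their interval under every alternative run and 18 changed sign under at least 1.

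Among the alternatives run, the share ratio moved only with the gate on thinned cells, to 4.27 of kept and 3.91 of CD3-positive barcodes. That gate did not leave out the mixed barcodes. It gave log2 ratios of 1.21 for Mdm2, 0.28 for the p53 sum, 0.33 for it in gamma-delta T cells, -0.34 for Tap1, -1.61 for Reg3b and -0.12 for Epcam. With that gate 117 genes were higher and 144 lower in FMTg, and 100 higher and 462 lower than in other T cells. At 10% mitochondrial UMIs, with the mixed barcodes kept, Mdm2 was at -0.86, Cdkn1a at -3.52, Trp53 at 1.12 and Ddit4 at -0.030. Hsp90ab1 was at 0.13, Hsp90aa1 at 0.29 and the p53 sum at 0.27, and that sum at 0.37 in gamma-delta T and 0.46 in resting B cells. In that setting 249 genes were higher and 115 lower, and 41 and 188 against other T cells. With no limit, 345 genes were higher than in other T cells.

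With unmixed cells, an alternative chosen after seeing the data, Mdm2 was at -0.84, Cdkn1a at -0.70, Reg3b at -1.51, Epcam at -0.47 and the p53 sum at 0.24, with 0.55 in other T and 0.14 in B cells. There 190 genes were higher in FMTg, and 120 higher and 502 lower than in other T cells. Without deep unmixed cells as well, Cdkn1a was at -0.59, Reg3b at -1.47, Epcam at -0.40 and the p53 sum at 0.25, with 150 genes higher, and 126 and 524 against other T cells. Without unmixed cells of 5 or more cell cycle UMIs, the values were -0.33, -1.51, -0.25 and 0.22, with 88, 131 and 540 genes. Leaving out members with any B-cell, Lyz2 or Epcam UMI gave -0.64 for Cdkn1a, -1.55 for Reg3b and 0.26 for the p53 sum, with 192 genes higher and 172 lower. Without the highest doublet scores the p53 sum in other T cells was 0.44. Equal weight per cell put Reg3b at -0.16. The counts of higher and lower genes were 1150 and 1033 at 20 UMIs, 166 and 138 at 100, and 2030 and 4907 at 1 UMI.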
